A study of Mus musculus with 16 samples.

Results

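The acute phase response genes described here are the 10 liver genes Saa1, Saa2, Saa3, Lcn2, Orm1, Orm2, Hp, Hpx, Itih4 and Steap4, taken as the probes whose gene name on the array is 1 of these. All 10 were found and all 10 passed the filter on dim probes, among 37074 gene names on the array and 20411 genes tested. They were read on Agilent SurePrint microarrays, on which the brightness of the Cy3 dye at a spot rises with the amount of the transcript that the probe of the spot matches. Liver RNA came from 16 male C57BL/6 mice fed a normal chow (NC) and never treated with antibiotics, 1 array per mouse. The mice were 6 weeks old at the first caecal transfer and 10 weeks old at sampling. They had been inoculated with the vehicle, reduced PBS (Conv + PBS, 6 mice), with caecal microbiota of lean NC-fed mice (Conv + LM, 5 mice), or with that of mice made obese by a high-fat diet (Conv + OM(HFD), 5 mice). The sample labels call the vehicle group not transplanted, while the labels' treatment field and the methods name the vehicle. The recipients kept their own gut microbiota, so the transfer added to a resident community. The study asked what the transfer of each microbiota does to hepatic gene expression, and the 3 groups are compared here for the acute phase genes.

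Values are the log2 of the background-subtracted spot brightness minus the 75th percentile of that array, so 0 is the brightness that 75% of the spots of an array do not exceed. Since probes differ in how well they bind, values are compared between mice for the same gene, and between genes only as differences between mice. The arrays had 49.8 to 58.3% of the probes well above background, lowest in mouse 1, and no saturated spot, and they lay on 2 slides. In the acute phase genes, 2 mice stood apart from the other 14, mouse 25 of the Conv + OM(HFD) group (slide 1) and mouse 1 of the Conv + PBS group (slide 2). Each comparison is therefore given with and without these 2 mice. Their arrays also had the lowest median correlation with the other arrays. It was 0.982 for mouse 1 and 0.983 for mouse 25, against 0.984 to 0.989 for the rest.

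The acute phase response is the change in plasma proteins that the liver makes during infection, injury or inflammation. Interleukin-6 acts on hepatocytes mainly through the transcription factor STAT3, and interleukin-1 and tumour necrosis factor act through NF-kB, often together with C/EBP factors. Serum amyloid A proteins (Saa1, Saa2) travel on high-density lipoprotein and are the steepest responders in the mouse, whereas Saa3 is also made by macrophages and fat cells. Lcn2 (lipocalin 2) binds bacterial siderophores and so withholds iron, and neutrophils make it too. Orm1 and Orm2 (orosomucoids) bind drugs and lipids in plasma, Hp (haptoglobin) binds free haemoglobin, Hpx (haemopexin) binds free haem, Itih4 belongs to the heavy chains of the inter-alpha-trypsin inhibitors, and Steap4 is a metalloreductase of iron and copper.

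The promoters of the 3 members that varied most between mice, Saa1, Saa2 and Lcn2, are shown with that of Steap4, which varied far less and held the most motif matches. Each run is the 250 bases before the transcription start in the RefSeq annotation of GRCm38.p6, 5′ to 3′ on the strand of the gene. Capitals mark matches on either strand to 4 kinds of motif: STAT (TTCCNGGAA or TTNCNNGAA), the interleukin-6 type 2 element (CTGGGAA), NF-kB (GGGNNTTCC or GGNNTTTCC) and C/EBP (TTNNGNAAT or TTGCNNAA), where N is any base.
Saa1, chr7:46742981-46743230 (- strand): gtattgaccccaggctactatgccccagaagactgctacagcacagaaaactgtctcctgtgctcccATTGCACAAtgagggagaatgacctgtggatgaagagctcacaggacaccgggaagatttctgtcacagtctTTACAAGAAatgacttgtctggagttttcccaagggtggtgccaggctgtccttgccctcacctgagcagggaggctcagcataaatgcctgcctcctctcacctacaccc
Saa2, chr7:46751583-46751832 (+ strand): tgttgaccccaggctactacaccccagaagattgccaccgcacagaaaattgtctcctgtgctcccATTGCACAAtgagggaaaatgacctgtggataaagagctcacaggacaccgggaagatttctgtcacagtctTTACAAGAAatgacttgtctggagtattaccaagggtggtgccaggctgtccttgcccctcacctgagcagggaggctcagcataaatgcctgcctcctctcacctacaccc
Lcn2, chr2:32387740-32387989 (- strand): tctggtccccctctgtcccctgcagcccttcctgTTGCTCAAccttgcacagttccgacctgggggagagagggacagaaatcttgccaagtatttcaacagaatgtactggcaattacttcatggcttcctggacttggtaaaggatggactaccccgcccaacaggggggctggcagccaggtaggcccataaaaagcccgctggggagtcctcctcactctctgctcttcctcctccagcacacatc
Steap4, chr5:7960222-7960471 (+ strand): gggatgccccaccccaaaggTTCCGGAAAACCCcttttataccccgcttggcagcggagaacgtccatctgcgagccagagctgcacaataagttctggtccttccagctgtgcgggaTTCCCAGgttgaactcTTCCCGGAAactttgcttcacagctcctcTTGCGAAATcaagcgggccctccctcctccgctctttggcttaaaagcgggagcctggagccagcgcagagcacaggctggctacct

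The start sites of Saa1 and Saa2 lie 8853 bases apart on opposite strands, and the genes are read away from each other. Their promoters shared 238 bases, 94.8% of the alignment, with 11 mismatches and 2 gap bases, while the other pairs of members aligned at 48.5 to 54.5%. Both held the same STAT match, TTACAAGAA, and the same C/EBP match, ATTGCACAA, in which both C/EBP patterns overlap. The Lcn2 window held 1 match, TTGCTCAA, and the Steap4 window 8, among them TTCCCGGAA, which meets both STAT patterns. Over the 8 members with a promoter entry, the pattern TTGCNNAA was found in 7 (Hpx, Lcn2, Orm2, Saa1, Saa2, Saa3 and Steap4) and in 9.56% of all 32851 promoters of the same length. TTNCNNGAA was found in 6 (Hpx, Itih4, Saa1, Saa2, Saa3 and Steap4) and in 11.1% of all promoters. TTNNGNAAT occurred in 4 members and 10.2% of all promoters, and GGNNTTTCC in 2 members (Saa3 and Steap4) and 4.93%. TTCCNGGAA, CTGGGAA and GGGNNTTCC occurred in Steap4 alone of the members, and in 0.913%, 9.10% and 4.98% of all promoters. These matches describe letters, and no binding was measured. Orm1 and Hp have no promoter entry.

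The array held 12 probes of 60 bases for the 10 genes, 1 each for 8 genes and 2 each for Lcn2 and Itih4. The probes of both orosomucoids, of Saa1 and of Saa3 are shown because paralogs could share signal.
Saa1, probe A_52_P318673 (mm9 chr7:53996070-53996129, - strand): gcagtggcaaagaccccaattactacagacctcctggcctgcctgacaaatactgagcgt
Saa3, probe A_66_P106131 (mm9 chr7:53967559-53967618, - strand): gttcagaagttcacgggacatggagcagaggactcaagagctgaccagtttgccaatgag
Orm1, probe A_55_P2734867 (mm9 chr4:63007395-63009038, + strand): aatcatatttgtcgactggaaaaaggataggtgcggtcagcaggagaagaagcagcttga
Orm2, probe A_51_P141546 (mm9 chr4:63024979-63025038, + strand): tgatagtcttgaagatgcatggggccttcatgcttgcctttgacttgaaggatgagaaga
The design lists the Orm1 probe, which runs across an intron, under the RefSeq transcripts of both Orm1 and Orm2, so its values may hold both and are uncertain. Saa1 and Saa2 are near-identical paralogs whose symbols RefSeq lists as synonyms of each other, and their probes, though different, may share signal. Every member was well above background on all 16 arrays. The brighter probe stood for Lcn2 and for Itih4. The second Lcn2 probe was well above background on 15 arrays and followed the first across the 16 mice with a Pearson r of 0.988 after removal of group means, and the second Itih4 probe with 0.833.

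Among mice of the same group the members differed widely. Lcn2, Saa2 and Saa1 were among the most variable genes of the liver, Saa3, Steap4, Orm2 and Orm1 were in between, Hpx near the middle of all genes, and Itih4 and Hp varied less than most. The within-group SD, computed from the fit of 3 group means, was 1.65 for Lcn2, which ranked 51st from the top (the top 0.25% of the 20411 genes). It was 1.31 for Saa2 (top 0.686%) and 1.29 for Saa1 (top 0.730%). For Saa3 it was 0.69 (top 7.14%), for Steap4 0.46 (top 18.0%), for Orm2 0.43 (top 20.8%) and for Orm1 0.37 (top 26.8%). Hpx had an SD of 0.27 (top 42.1%), Itih4 of 0.15 (top 77.6%) and Hp of 0.15 (top 77.9%). Thus 3 of the 10 members were in the top 5% of all genes, 2 without mouse 25, and 0 without the highest and lowest array of every group, while with normexp background correction 6 were, and with the authors' log2 values or a filter on all arrays 4 were.

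**Figure D1:**
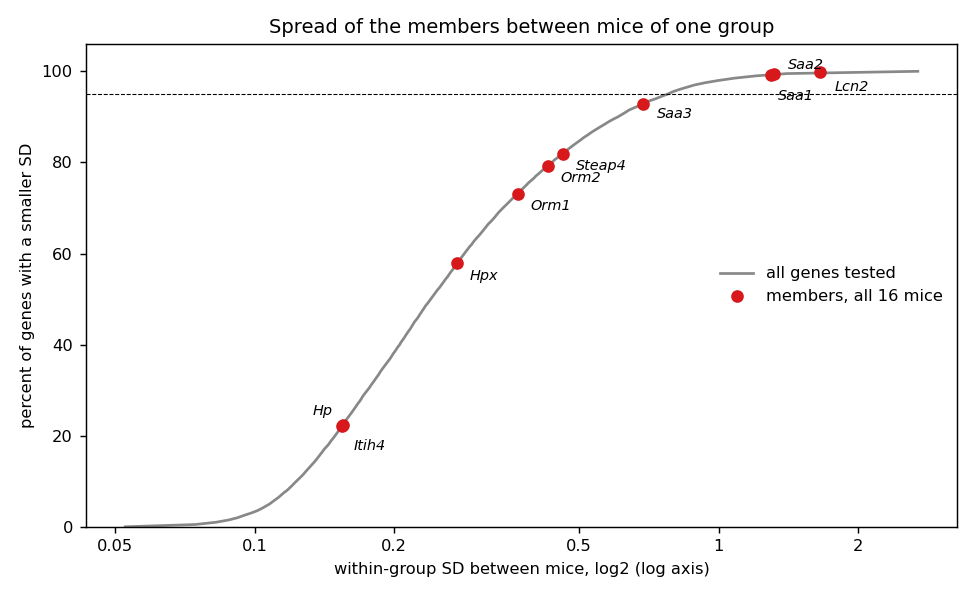
Within-group SD between mice on the log2 scale (x axis, log axis) against the percent of genes with a smaller SD (y axis), for all 20411 genes tested (line) and the 10 members (points, all 16 mice), with a dashed line at 95%. Lcn2, Saa2 and Saa1 lie above 95%, Saa3 just below, and Itih4 and Hp in the lower part of the line.

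Lcn2 covered the widest range, 6.74 on the log2 scale or 107-fold from lowest to highest mouse. Its log2 values were 6.08, -0.39, 0.52, 0.32 and 1.48 in Conv + OM(HFD) mice 25, 26, 28, 29 and 30, and -0.09, 0.70, 0.87, 0.58 and 0.55 in Conv + LM mice 13 to 17. In the 6 Conv + PBS mice they ran from -0.66 to 2.77 with a median of 0.67, the highest being mouse 1. Mouse 25 was thus 45.7-fold above the median of all mice and mouse 1 was 4.61-fold above it, the third was mouse 5 of the Conv + PBS group, 1.21 above the median on the log2 scale, and the 3 groups overlapped.

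Saa1 and Saa2 followed the same mice. Saa2 values were 9.64, 4.35, 5.94, 5.53 and 5.19 in Conv + OM(HFD) mice 25, 26, 28, 29 and 30, and 5.40, 5.74, 5.22, 5.19 and 6.01 in Conv + LM mice 13 to 17. The Conv + PBS mice had a lowest value of 4.53, a median of 5.05 and a highest of 7.24. Saa1 values were 9.04, 3.81, 5.32, 4.97 and 4.59 in the Conv + OM(HFD) mice, 4.78, 5.20, 4.49, 4.76 and 5.32 in the Conv + LM mice, and 3.92 to 6.55 (median 4.48) in the Conv + PBS mice, in the same order of mice. For both genes mouse 25 was highest, at 19.6-fold (Saa2) and 19.3-fold (Saa1) above the median of the 16 mice, and mouse 1 was second, at 3.71-fold and 3.44-fold. Mouse 26, of the same group as mouse 25, was the lowest for both.

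Saa3 was the only member that was higher in mouse 1 than in mouse 25. Its values were 3.56, 1.48, 2.29, 2.62 and 2.25 in Conv + OM(HFD) mice 25, 26, 28, 29 and 30, 1.89, 2.68, 2.44, 2.07 and 2.40 in Conv + LM mice 13 to 17, and 1.5 to 3.70 (median 2.0) in Conv + PBS mice. Mouse 1 was 2.69-fold and mouse 25 was 2.43-fold above the median of all mice, and the groups overlapped.

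Steap4 stood high in 1 mouse. It was 1.45 in mouse 25 against -0.52, -0.03, 0.35 and 0.05 in the other Conv + OM(HFD) mice, -0.29 to 0.20 in Conv + LM mice, and -0.15 to 0.55 (median 0.16) in Conv + PBS mice. In mouse 1 it lay 0.33 above the median of the 16 mice, below the highest of the other 14 (0.53, mouse 5). Orm2 was 7.62 in mouse 25 and 6.90 in mouse 1, and 6.03 to 6.45 in the other Conv + OM(HFD), 5.81 to 6.35 in the Conv + LM and 5.89 to 6.52 in the other Conv + PBS mice. Orm1 had the same 2 mice on top, at 8.63 and 7.95, with the other 14 between 0.36 below and 0.32 above its median on the log2 scale.

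The proteins that bind haemoglobin and haem, and Itih4, moved least of the members. Hpx covered a range of 1.09 on the log2 scale, or 2.14-fold. It was 10.18 in mouse 25, 1.71-fold above the median, and 9.61 in mouse 1, 1.15-fold above it. Hp covered a range of 0.56 on the log2 scale over all 16 mice, or 1.48-fold, with mouse 25 at 9.75 and mouse 1 at 9.27, the latter 0.08 below the median. Itih4 covered 0.65, or 1.57-fold, with mouse 25 at 9.04 and mouse 1 at 8.75.

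**Figure D2:**
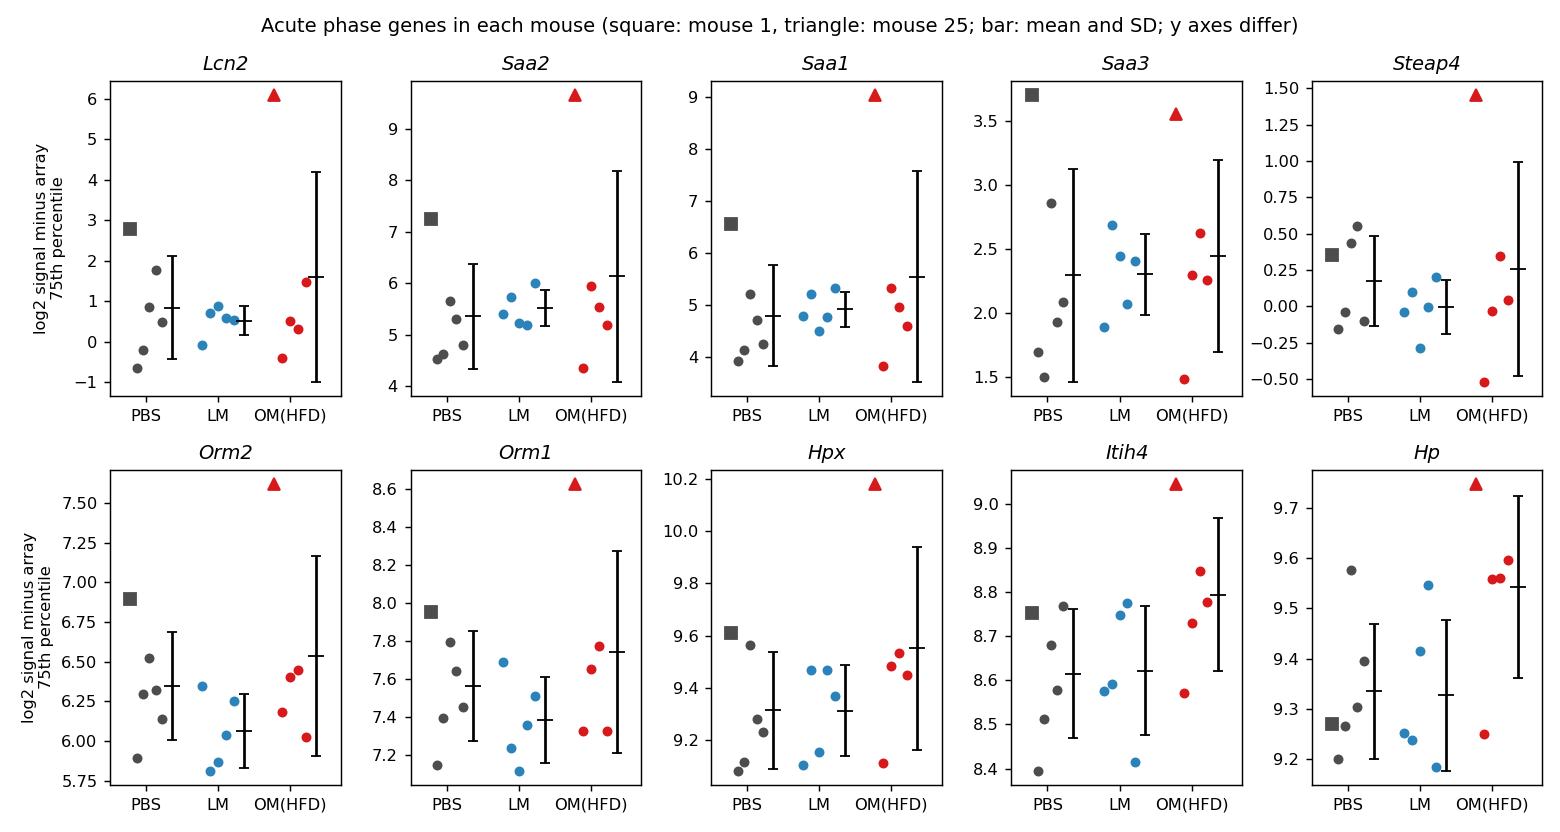
Log2 signal minus the 75th percentile of the array (y axis, a scale of its own for each gene) in every mouse of the 3 groups (x axis), with the group mean and SD as a bar, genes ordered by within-group SD. The triangle (mouse 25, Conv + OM(HFD)) is the highest point in 9 of 10 genes, and the square (mouse 1, Conv + PBS) is among the 2 highest in 7.

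The order in which the genes stood above their medians was largely shared by the 2 mice, of which mouse 25 had received the HFD-microbiota and mouse 1 the vehicle. In mouse 25 the differences from the median of the 16 mice were 5.51 for Lcn2, 4.29 for Saa2, 4.27 for Saa1, 1.43 for Steap4, 1.35 for Orm2, 1.28 for Saa3, 1.15 for Orm1, 0.77 for Hpx, 0.40 for Hp and 0.34 for Itih4, all on the log2 scale. In mouse 1 they were 2.21 for Lcn2, 1.89 for Saa2, 1.78 for Saa1, 1.43 for Saa3, 0.62 for Orm2, 0.47 for Orm1, 0.33 for Steap4, 0.20 for Hpx, 0.05 for Itih4 and -0.08 for Hp. The first 3 ranks were the same in both mice. Steap4 dropped from rank 4 in mouse 25 to rank 7 in mouse 1, and Saa3 moved from rank 6 to rank 4, which are the largest changes of rank. Across the 10 genes the ranks had a Spearman rho of 0.903, given as a description, since genes are not independent replicates. A value more than 1 above the median on the log2 scale was seen in 7 members in mouse 25 and in 4 in mouse 1 (Lcn2, Saa2, Saa1 and Saa3). In the other 14 mice it was seen in 1 of 140 values, Lcn2 in mouse 5.

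**Figure D3:**
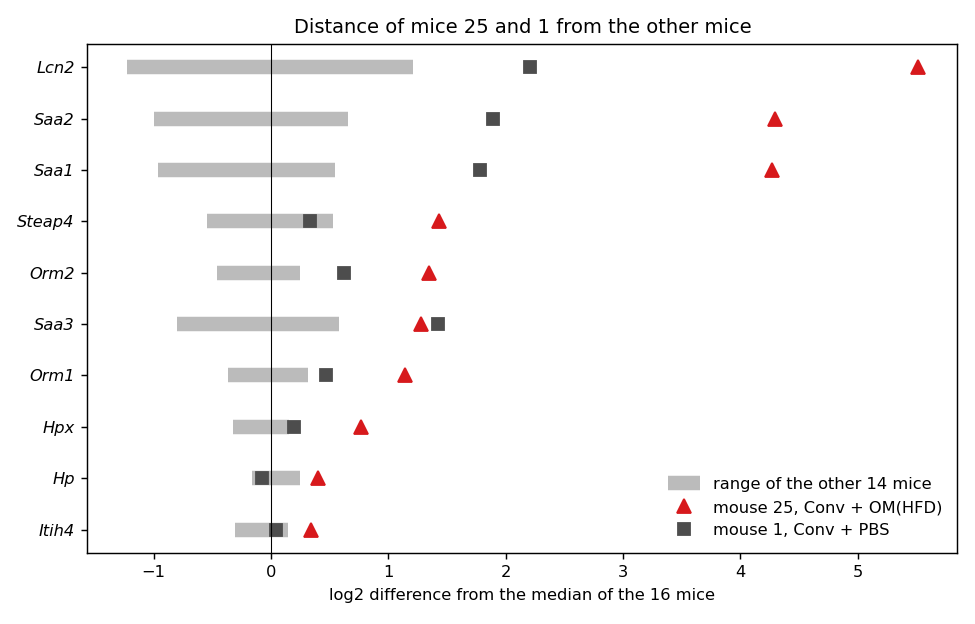
Log2 difference of each member from its median over the 16 mice (x axis) in mouse 25 (triangles) and mouse 1 (squares), with the range of the other 14 mice as a bar, genes (y axis) ordered by mouse 25. Mouse 25 lies outside the bar for all 10 genes and mouse 1 for 7, with Steap4, Itih4 and Hp inside it.

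The mean difference from the median over the 10 members was 2.08 in mouse 25 and 0.89 in mouse 1, and the next mouse was mouse 4 of the Conv + PBS group at 0.29. The lowest mice were mouse 2 of the Conv + PBS group (-0.52) and mouse 26 of the Conv + OM(HFD) group (-0.50), in each of which all 10 members were below their medians. Conv + LM mice spread least, from -0.13 to 0.10, an SD of 0.10 (n = 5), against 0.51 in Conv + PBS (n = 6) and 0.98 in Conv + OM(HFD) mice (n = 5). Without mice 1 and 25 the SDs were 0.33 (n = 5) and 0.32 (n = 4). The difference in spread between groups was not tested.

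Among the other 14 mice the spread of the members shrank by unequal amounts. The 2 mice left out are those with the highest mean of the members, so a smaller spread follows in part from that choice. The within-group SD of Lcn2 went from 1.65 to 0.73 without mice 1 and 25 and stayed in the top 5% of all genes (top 4.88%). Saa1 and Saa2 went to 0.51 (top 12.7%) and 0.50 (top 12.9%), and Saa3 to 0.45 (top 16.4%). Hp kept its SD, at 0.15 with all mice and 0.15 without the 2. Lcn2 still covered a 5.43-fold range over the 14 mice, Saa2 3.16-fold, Saa1 2.85-fold and Saa3 2.60-fold, while Hp covered 1.33-fold.

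The members moved together from mouse to mouse within groups. All 45 pairs had a Pearson r above 0 across the 16 mice after removal of group means, from 0.353 to 0.998 with a median of 0.802, and 34 of 45 had a Benjamini-Hochberg adjusted p under 0.05 by permutation within groups (28 by Spearman's rho). Because mice 1 and 25 stand apart, the same was computed over the other 14, where the median r was 0.524 (0.050 to 0.986) and 13 pairs passed, all of them among the 34. Within slides, with group means taken on the slide, the median r was 0.902 on slide 1 and 0.719 on slide 2.

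Saa1 and Saa2 gave the highest value, r = 0.998 (rho = 0.988, both permutation p 1e-05, the smallest the permutations give). It was 0.986 without the 2 mice farthest from the median, which were mice 1 and 25 (group means recomputed, here and below), and 0.9996 and 0.991 within the slides. Orm1 and Orm2 had r = 0.974 (rho = 0.944) and 0.938 without these 2 mice, with the limit that the Orm1 probe is listed under both genes. Hp and Itih4, the least variable members, had r = 0.802 (rho = 0.824, adjusted p 0.0046 and 0.0026) and 0.823 without mice 4 and 26, the farthest for Hp. Lcn2 and Orm2 had r = 0.809 (rho = 0.541, adjusted p 0.029 and 0.076), and 0.050 without the 2 farthest mice, so that relation rests on mice 1 and 25. Over all 16 mice Hp had the weakest relations, with r from 0.353 (Orm2) to 0.490 (Lcn2) against Saa1, Saa2, Saa3, Lcn2, Orm1 and Orm2. Without mice 1 and 25 these r values ran from 0.186 (Orm2) to 0.601 (Saa3), and the weakest pair was Lcn2 and Orm2.

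Many transcripts of neutrophils and of macrophages were high in the same 2 mice. S100a9, a calcium-binding protein that fills the cytosol of neutrophils, was 3.85 in mouse 1 and 3.88 in mouse 25 and between -2.68 and -0.78 in the other 14. S100a8, its partner, was 1.73 and 1.49 against -5.31 to -2.90, and was well above background on 14 arrays. Of the 12 neutrophil markers 9 were well above background on at least 5 arrays, none was below it on every array, and 7 were highest in mouse 1 or 25. Of all 20411 genes tested, 1652 were highest in mouse 1 and 1663 in mouse 25. Their summed level, with the 75th percentile of an array as 1, was 198.0 in mouse 1, 161.2 in mouse 25 and 116.0 to 157.9 in the other 14 (134.9 to 198.0 in Conv + PBS, 116.0 to 147.5 in Conv + LM and 144.2 to 161.2 in Conv + OM(HFD) mice), and a single probe, Csf3r, made up 62.6 to 93.7% of it, although Csf3r lay slightly below its median in both mice (-0.01 in mouse 1 and -0.13 in mouse 25). All 9 markers of Kupffer cells and macrophages were above background on every array, and all 9 were highest in mouse 1. In mouse 25, 8 of the 9 lay above all of the other 14 mice, while Cd163 lay just below its median (-0.06). The summed level of the 9 markers was 175.8 in mouse 1, 80.8 in mouse 25 and 27.1 to 48.2 in the other 14 (33.2 to 175.8 in Conv + PBS, 27.1 to 40.6 in Conv + LM and 31.4 to 80.8 in Conv + OM(HFD) mice). Clec4f, a lectin of Kupffer cells, was 4.37 in mouse 1, 3.80 in mouse 25 and 2.45 to 3.14 in the rest. Thus mouse 1 had the higher macrophage transcripts and mouse 25 the higher Lcn2, Saa1 and Saa2. More cells of a type and more RNA per cell cannot be told apart in whole liver, and the part of these cells in the values of the members was not tested.

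**Figure D4:**
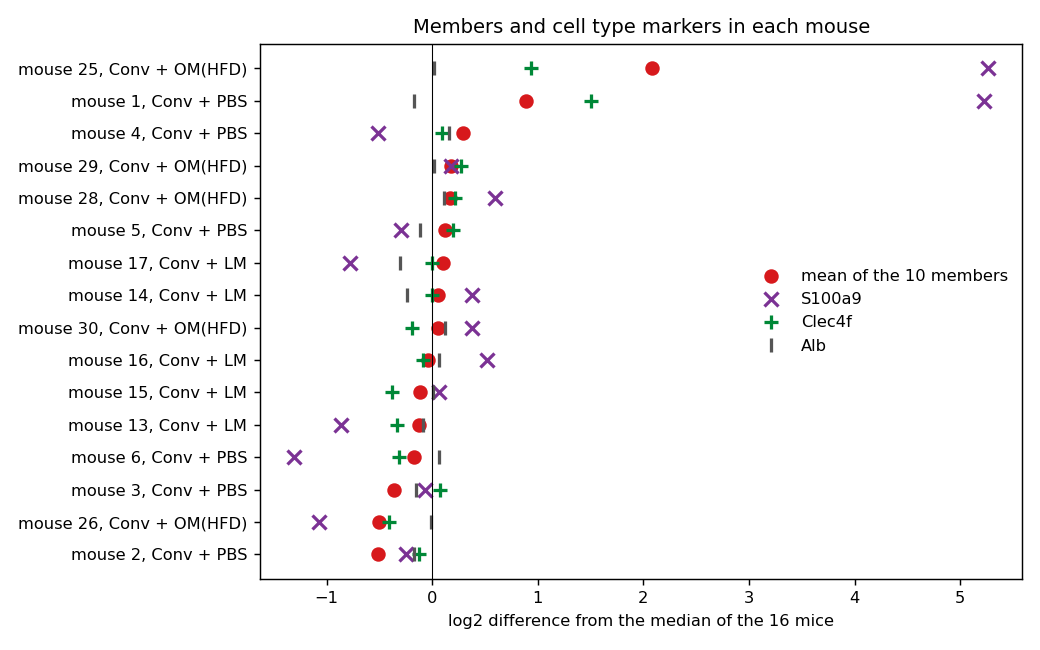
Log2 difference from the median of the 16 mice (x axis) of the mean of the 10 members, of S100a9 (neutrophils), Clec4f (Kupffer cells) and Alb (hepatocytes) in each mouse (y axis, ordered by the mean of the members). S100a9 lies 5.26 above its median in mouse 25 and 5.23 in mouse 1, and Alb stays near 0 in every mouse.

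The sample was liver by its markers. The 8 hepatocyte markers were well above background on every array, and Alb, albumin, was 10.03 in mouse 1, 10.21 in mouse 25 and 9.89 to 10.35 in the rest. Their summed level was 3913 in mouse 1 and 4235 in mouse 25 against 3942 to 4996 in the other 14. The 4 B cell markers summed to 1.03 and 1.34 in mice 1 and 25 and to 0.274 to 1.01 in the rest, with Cd79a not above background on any array. Red blood cell markers summed to 285.8 and 573.9, within the 191.7 to 622.2 of the rest. Markers of adipose tissue (2.04 and 2.99 against 2.27 to 10.9, Adipoq above background on 1 array), bile ducts (0.408 and 0.703 against 0.672 to 1.31) and pancreas (20.9 and 15.5 against 17 to 33.7, Cpa1 not above background on any array) were not above the range of the other 14 in either mouse.

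With the HFD-microbiota against the vehicle, no member passed. Conv + OM(HFD) mice had the higher mean for all 10 members, and the median of their log2 fold changes was 0.20 beside -0.00042 over all genes, but 0 of 10 reached an unadjusted limma p under 0.05, against 3.27% of all genes tested, and every adjusted p was 1.0. The exact two-sided permutation test also gave 0 of 10 under 0.05, where its smallest possible p is 0.00216. The smallest p was that of Hp, whose values were 9.75, 9.25, 9.56, 9.56 and 9.60 in Conv + OM(HFD) mice 25, 26, 28, 29 and 30 and 9.20 to 9.58 (median 9.29) in Conv + PBS mice. Its log2 fold change was 0.21 (SE 0.10, 95% interval -0.0033 to 0.42, limma p 0.053, exact permutation p 0.061). The most variable members had larger and far less certain changes, 0.77 for Saa2 (SE 0.73, -0.79 to 2.34), 0.76 for Lcn2 (SE 0.92, -1.20 to 2.72) and 0.75 for Saa1 (SE 0.72, -0.79 to 2.29). These intervals reach from a fall to a rise of several fold.

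Leaving out mice 1 and 25, 9 of 10 members were still higher in Conv + OM(HFD) mice, with a median of 0.14. Steap4 turned to -0.18, Lcn2 went to 0.03 (SE 0.45) and Saa2 to 0.27 (SE 0.31), and 0 of 10 had an unadjusted p under 0.05 in limma, against 3.18% of all genes. Leaving out mouse 25 alone took the median to -0.09, and leaving out mouse 26 alone put 3 members, Hp, Hpx and Itih4, at an unadjusted limma p under 0.05, against 3.93% of all genes. The slides gave opposite signs: on slide 1, which holds mouse 25, all 10 members were higher with the HFD-microbiota (3 mice against 3, median 0.53, with Hp, Hpx, Itih4 and Saa3, 4 of 10, at an unadjusted limma p under 0.05, against 3.92% of all genes), and on slide 2, which holds mouse 1, all 10 were lower (2 mice against 3, median -0.26). Since the members move together, 10 signs do not stand for 10 separate observations.

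With the lean microbiota against the vehicle, the members differed little in mean over both slides. Conv + LM mice had a higher mean in 4 members and a lower one in 6, with a median log2 fold change of -0.0045 beside -0.01 over all genes, and 0 of 10 had an unadjusted limma p under 0.05, against 3.95% of all genes (0 of 10 by the exact permutation test). The largest differences were -0.32 for Lcn2 (SE 0.92), -0.28 for Orm2 (SE 0.24, limma p 0.26) and -0.18 for Orm1 (SE 0.21, limma p 0.41). On slide 1 alone, 6 members were higher and 4 lower (2 mice against 3, median 0.08). On slide 2 alone, all 10 were lower with the lean microbiota (3 mice against 3, median -0.42). Without the highest and lowest array of every group 2 members, Orm1 and Orm2, had an unadjusted limma p under 0.05, against 6.34% of all genes. Leaving out mice 1 and 25, 6 were higher and 4 lower, the median was 0.05, and again 0 of 10 passed, against 4.87% of all genes. There the amyloid genes had the largest changes, 0.53 for Saa2 (SE 0.29, 95% interval -0.10 to 1.16, limma p 0.093) and 0.47 for Saa1 (SE 0.29, limma p 0.13).

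Between the microbiotas, the higher mean was that of Conv + OM(HFD) mice for all 10 members, with a median of 0.31 beside 0.0087 over all genes. Of these 0 of 10 had an unadjusted limma p under 0.05, against 2.71% of all genes, and 0 of 10 by the exact permutation test, whose smallest possible p is 0.00794 for 5 against 5. Hp came closest again, with a log2 fold change of 0.22 (SE 0.10, 95% interval -0.0047 to 0.44, limma p 0.054, exact permutation p 0.056), followed by Orm2 with 0.47 (SE 0.25, limma p 0.083). The largest difference was that of Lcn2, 1.08 (SE 0.96, limma p 0.28). Without mouse 26, Hp, Hpx and Itih4 (3 of 10) had an unadjusted p under 0.05, against 3.43% of all genes, and without the highest and lowest array of every group Orm1 and Orm2 (2 of 10) did, against 5.61%. Without mice 1 and 25 only 5 of 10 were higher, the median was 0.02, Lcn2 was at -0.04, Saa2 at -0.26 and Saa1 at -0.24, and 0 of 10 passed, against 3.75% of all genes. This comparison and the other two share their mice, so the 3 are not independent of each other.

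**Figure D5:**
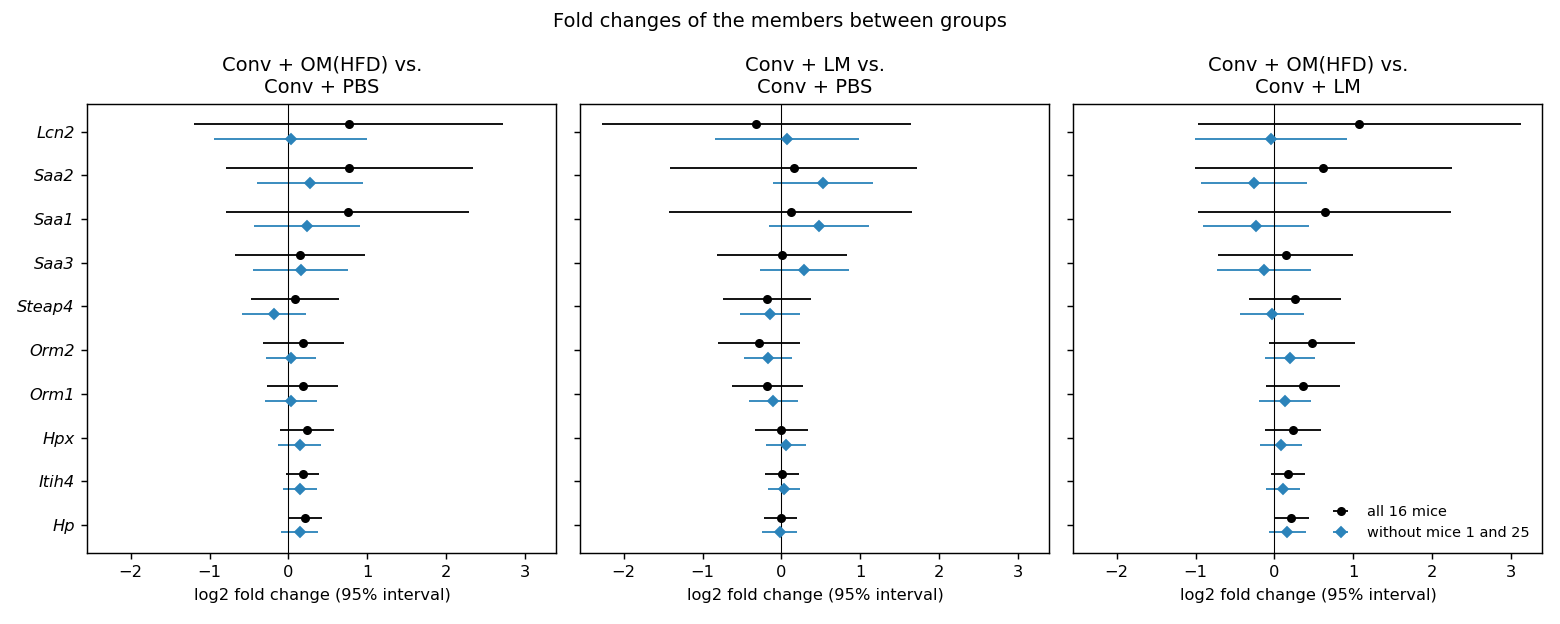
Log2 fold change of each member with its 95% interval from limma (x axis) in the 3 comparisons, with all 16 mice (circles) and without mice 1 and 25 (diamonds), genes (y axis) ordered by within-group SD. Every interval spans 0, and leaving out the 2 mice shortens those of Lcn2, Saa2 and Saa1 most.

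Other positive acute phase proteins were high in mouse 25, and only a few of them in mouse 1. Of the 28 genes listed, 27 were tested (Ltf was not). In mouse 25, 21 of the 27 lay above their median, against 9513 of all 20411 genes tested, and 9 by more than 1 on the log2 scale (33.3%, against 3.11% of all genes tested). Of the 27, 17 were at their highest of all 16 mice there, against 1663 of all genes. In mouse 1, 15 lay above (median over the 27 genes 0.02, against 0.65 in mouse 25), where 9059 of all genes did. There 3 lay above by more than 1 (11.1%, against 3.06%), and 2 were at their highest, against 1652 of all genes. Orm3, the third orosomucoid, varied most, with a within-group SD of 1.37, at 4.22 above its median in mouse 25 and 2.76 in mouse 1 against at most 0.34 in the rest. Mt2 and Mt1, metallothioneins that bind zinc and copper, had SDs of 1.17 and 0.82 and lay 2.31 and 1.79 above their medians in mouse 25 but 0.05 and 0.20 in mouse 1. Il1rn, the interleukin-1 receptor antagonist, well above background on 13 arrays, had an SD of 1.20, and its highest mouse, 3.34 above the median, was one of the other 14. Hamp2, a hepcidin gene, had an SD of 1.12, with a lowest mouse 3.13 below the median. The Orm genes are paralogs, and the Orm3 values may hold signal of the others.

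Between groups, 24 of these 27 genes had a higher mean with the HFD-microbiota than with the vehicle (median 0.17), and 4 of the 27 had an unadjusted limma p under 0.05, all higher, against 3.27% of all genes. Lbp, which carries lipopolysaccharide to its receptor, had a log2 fold change of 0.56 (SE 0.24, p 0.031), Fga, a fibrinogen chain, of 0.32 (SE 0.14, p 0.035), Cp, the copper carrier ceruloplasmin, of 0.26 (SE 0.12, p 0.046), and Itih3, a relative of Itih4, of 0.30 (SE 0.14, p 0.0497), and each had an adjusted p of 1.0 in limma. By the exact permutation test the p was 0.076 for Lbp, 0.041 for Fga, 0.0022 for Cp, the smallest that 5 mice against 6 allow, and 0.074 for Itih3. Without mice 1 and 25 none of the 27 passed (Lbp 0.39, p 0.092, Cp 0.13, p 0.13 in limma), against 3.18% of all genes. In Conv + LM against Conv + PBS mice 0 of 27 passed, and without mice 1 and 25 1 did, Apcs, serum amyloid P (0.35, limma p 0.046), a share below the 4.87% of all genes called there. Between the microbiotas 0 of 27 passed, with or without the 2 mice, against 2.71% of all genes with them and 3.75% without.

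The negative acute phase proteins, which fall in inflammation, stayed close to their medians in both mice, and most lay below them in mouse 1. All 11 were tested, and 5 lay above their median in mouse 25 and 2 in mouse 1, against 9513 and 9059 of all 20411 genes tested. None was more than 1 above or below in either mouse, a cut far wider than their within-group SD, which was at most 0.19. Mouse 1 was the lowest of all mice for Apoa1 (0.29 below the median), and mouse 25 for Igf1 (0.26 below). Of the 11, 0 passed at an unadjusted limma p under 0.05 in any comparison. The median was 0.07 (10 higher and 1 lower) for Conv + OM(HFD) against Conv + PBS mice, where 3.27% of all genes passed. It was -0.02 for Conv + LM against Conv + PBS mice, where 3.95% passed, and 0.05 between the microbiotas, where 2.71% passed. The most variable were Apoa1, the main protein of high-density lipoprotein, with an SD of 0.19, Serpina6, the corticosteroid carrier, with 0.17, the growth factor Igf1 with 0.15, Ahsg, fetuin-A, with 0.13 and Apoa2 with 0.13.

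Of 33 genes of interleukin-6, interleukin-1 and lipopolysaccharide signalling to the hepatocyte 29 were tested, and the cytokine genes Il6, Il11, Lif and Osm fell below the filter, each of their probes being well above background on at most 2 arrays. In mouse 25, 2 of the 29 lay more than 1 above their median (6.90%, against 3.11% of all genes, with a list median of 0.00093), Nfkbiz, an inducible cofactor of NF-kB, by 2.11 and Il1b, interleukin-1 beta, by 1.93. In mouse 1 it was also 2 of the 29 (6.90%, against 3.06%, list median 0.03), where Il1b lay 3.13 above and Socs3, the feedback inhibitor of STAT3, 1.0 above, while Socs3 was at -0.03 in mouse 25. Stat3 lay 0.69 above its median in mouse 25 and 0.40 in mouse 1, its 2 highest mice. Il1b had the largest within-group SD (1.12, well above background on 14 arrays), followed by Socs3 (0.78), Nfkbiz (0.62), Pim1, a kinase that STAT3 induces (0.62), and the cytokine Il22 (0.52, well above background on 5 arrays). Between the microbiotas 1 of 29 passed at an unadjusted limma p under 0.05, Jak1, a kinase of the interleukin-6 receptor, at -0.22 in Conv + OM(HFD) (p 0.045), a share near the 2.71% of all genes. None of 29 passed between the HFD-microbiota and the vehicle, against 3.27% of all genes. Without mice 1 and 25, 2 of 29 passed in Conv + OM(HFD) against Conv + LM mice, against 3.75% of all genes, Il1b at -0.86 (p 0.0075) and Jak1 at -0.24 (p 0.040), and no gene had an adjusted p under 0.05 in limma.

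Outside these lists, the genes whose pattern was most like the mean of the 10 members across the 16 mice, with group means removed, were Tbc1d9 (Pearson r 0.933), Ang2 (0.924), Zfp385c (0.920), Gzma, granzyme A of cytotoxic lymphocytes (0.918), and S100a4 (0.915). Over the 14 mice without mice 1 and 25 the values were 0.796, 0.858, 0.669, 0.609 and 0.571. The least like were Adgrg2 (-0.889) and 9430011C21Rik (-0.888), at -0.493 and -0.119 over the 14 mice. These values are a description of 20335 genes compared with the same mean, with no test. Among the members themselves Saa1 (0.990) and Saa2 (0.987) were closest to the mean of which they are part, Itih4 (0.671) and Hp (0.508) farthest.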

How the data were processed

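Liver RNA of 16 mice was hybridized to Agilent SurePrint G3 Mouse GE v2 arrays, 1 per mouse, and p-values set group differences against the spread between mice. By the methods, the caecum content of several donors was pooled for each group, and mice were group-housed. Effects of a transfer can therefore not be told apart from those of the donor pool, nor, where a group shared a cage, of the cage. Groups were taken from the sample labels. The authors deposited scanner output of Agilent Feature Extraction 10.10.1.1, in which each spot has an intensity on a linear scale, background-subtracted and detrended within the array and not normalized between arrays, and a table of log2 values, which matched quantile-normalized log2 median intensities. All its sample columns could be mapped, and 0 columns of per-sample values were left unused. The submitters' processing notes also name limma.

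From the deposited intensity, outlier and control spots were left out, spots of a probe were averaged, log2 was taken (no pseudocount) and the 75th percentile of each array subtracted. Probes well above background on at least 5 arrays were kept (30671 probes, 20411 genes), and the brightest probe stood for each of 6819 genes with several. Groups were compared in limma 3.58.1 (R 4.3.3), all 3 groups in 1 fit, with Benjamini-Hochberg adjustment over all genes, and by exact two-sided permutation tests. Relations used 100000 permutations within groups. Python 3.11.15 with scipy 1.17.1, Biopython 1.88 (global alignment) and matplotlib 3.10.9 did the rest. The fit was tested on simulated data with known changes. These held independent normal noise for each gene, so the test does not cover genes that move together or mice that stand apart.

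The members, the gene lists (other positive and negative acute phase proteins, signalling, and markers of 8 cell types or tissues) and the tests were chosen with earlier results of these data known. A gene of the signalling list and a motif searched in the promoters are not reported here. The text names the 10 members, list genes at an unadjusted p under 0.05 (at most 4 per list and comparison), the 5 of each list with the largest within-group SD, the 5 genes most like and the 2 least like the mean of the members, and the markers S100a8, S100a9, Clec4f, Adipoq and Alb. Lbp, Stat3, Apcs and other genes named beside these rules were chosen after their values were seen. Alternatives tried were array weights, the slide as a block, each slide by itself, a fit on only the 2 groups in question, the mean over a gene's probes, no filter or one requiring every array, quantile normalization, normexp (offset 50), the authors' log2 values, the methods' t-test, and leaving out each mouse, the 2 arrays with the highest mean of the members, or the highest and lowest array of every group.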

Additional observations from a re-analysis of the deposited data

Results flagged for a closer look

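Mouse 25 of the Conv + OM(HFD) group was far from the other 4 mice of its group in 4 of 33 sets of values examined, the 10 members and their mean in 3 groups. Chance alone sets a mouse apart in about 1 in 20 sets, but the members are correlated and the mean is built from them, so the 4 are a single mouse seen through related genes and cannot be read against that share. Its log2 value was 6.08 for Lcn2 (next 1.48), 9.04 for Saa1 (next 5.32) and 7.62 for Orm2 (next 6.45), and its mean difference from the medians over the 10 members was 2.08 (next 0.17). The gap to the next mouse was 0.710, 0.711, 0.736 and 0.738 of the range of the group. In the other groups no mouse was set apart in this way, mouse 1 of the Conv + PBS group included.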

How the results depend on the processing

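No paired analysis was possible because no mouse number occurs in more than 1 group. Precision is limited by 5 or 6 mice per group and, for the most variable members, by mice 1 and 25. No member's adjusted p crossed the threshold under any alternative in which it was computed. For Conv + OM(HFD) vs. Conv + PBS, 269 of 290 fold changes of single members under an alternative kept their sign. For Conv + LM vs. Conv + PBS, 242 of 290 fold changes of single members under an alternative kept their sign. For Conv + OM(HFD) vs. Conv + LM, 273 of 290 fold changes of single members under an alternative kept their sign. The median fold change of the members moved by less than 0.63 under every alternative. That is the within-group SD of the mean of the members, which mice 1 and 25 widen and which is no error of the median. For Conv + OM(HFD) vs. Conv + PBS the median, 0.20, was 0.53 on slide 1 alone. It turned sign on slide 2 alone (-0.26) and without mouse 25 (-0.09). Between the microbiotas the median turned sign on slide 2 alone (-0.03). For Conv + LM vs. Conv + PBS, where it was -0.0045, it was above 0 with quantile normalization (0.0078), the authors' log2 values (0.011), array weights (0.056), on slide 1 alone (0.080), without mice 1 and 25 (0.046), without the highest and lowest array of every group (0.040), and without mouse 1 (0.046), 4 (0.030) or 13 (0.014). The count of members at an unadjusted p under 0.05, 0 in each comparison, was 4 (Hp, Hpx, Itih4 and Saa3) for Conv + OM(HFD) vs. Conv + PBS and 1 (Hp) for Conv + OM(HFD) vs. Conv + LM on slide 1 alone (3.92% and 5.21% of all genes), and 2 (Orm1 and Orm2) for each comparison with Conv + LM without the highest and lowest array of every group (6.34% and 5.61%). Leaving out each mouse in turn it ran from 0 to 3 for Conv + OM(HFD) vs. Conv + PBS and for Conv + OM(HFD) vs. Conv + LM, with 3 (Hp, Hpx and Itih4) without mouse 26, 1 (Hp) without mouse 4 or 16, and 1 (Orm2, between the microbiotas) without mouse 30, where 2.55 to 3.93% of all genes passed, and was 0 throughout for Conv + LM vs. Conv + PBS. The number of members in the top 5% of within-group SD, 3, was 6 with normexp background correction, 4 with the authors' log2 values and with probes well above background on every array, 1 without mice 1 and 25, 0 without the highest and lowest array of every group, and 2 to 3 leaving out each mouse in turn. For Conv + OM(HFD) vs. Conv + PBS, the log2 fold change took the other sign on slide 2 alone for Orm2 (-0.20), Steap4 (-0.32), Saa2 (-0.96), Hpx (-0.14), Saa1 (-0.95), Hp (-0.0077), Lcn2 (-1.41), Itih4 (-0.024), Orm1 (-0.18) and Saa3 (-0.83), without mice 1 and 25 for Steap4 (-0.18), and without the highest and lowest array of every group for Orm2 (-0.029) and Steap4 (-0.092). Leaving out each mouse in turn, it ran from -0.081 to 0.32 for Orm2, -0.21 to 0.28 for Steap4, -0.11 to 1.22 for Saa2, -0.12 to 1.19 for Saa1, -0.36 to 1.26 for Lcn2, -0.043 to 0.28 for Orm1 and -0.13 to 0.43 for Saa3. For Conv + LM vs. Conv + PBS, the log2 fold change took the other sign with normexp background correction for Hpx (0.0012), Hp (0.0061) and Saa3 (-0.0079), with quantile normalization for Hpx (0.048), Hp (0.019) and Saa3 (-0.0036), with the authors' log2 values for Hpx (0.043) and Hp (0.045), with the slide as a block for Itih4 (-8.0e-06) and Saa3 (-0.019), on slide 1 alone for Hpx (0.13) and Orm1 (0.071), on slide 2 alone for Saa2 (-0.42), Saa1 (-0.48), Itih4 (-0.088) and Saa3 (-0.58), with array weights for Hpx (0.064), Hp (0.049) and Lcn2 (0.019), without mice 1 and 25 for Hpx (0.058) and Lcn2 (0.069), and without the highest and lowest array of every group for Hpx (0.066) and Hp (0.015). Leaving out each mouse in turn, it ran from -0.012 to 0.53 for Saa2, -0.047 to 0.058 for Hpx, -0.057 to 0.47 for Saa1, -0.063 to 0.040 for Hp, -0.62 to 0.069 for Lcn2, -0.037 to 0.058 for Itih4 and -0.15 to 0.29 for Saa3. For Conv + OM(HFD) vs. Conv + LM, the log2 fold change took the other sign on slide 2 alone for Steap4 (-0.057), Saa2 (-0.53), Hpx (-0.0058), Saa1 (-0.47), Lcn2 (-0.71) and Saa3 (-0.25), without mice 1 and 25 for Steap4 (-0.035), Saa2 (-0.26), Saa1 (-0.24), Lcn2 (-0.042) and Saa3 (-0.14), and without the highest and lowest array of every group for Saa3 (-0.0080). Leaving out each mouse in turn, it ran from -0.035 to 0.46 for Steap4, -0.26 to 1.06 for Saa2, -0.24 to 1.07 for Saa1, -0.042 to 1.58 for Lcn2 and -0.14 to 0.38 for Saa3. The cause of these changes of sign was not tested.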
